A study of Mus musculus with 24 samples.

Results

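Expression was compared between sciatic nerves of wild type (WT) mice aged 4 months and of WT mice at postnatal day 5 (P5). The members were chosen by their titles, for ages known to have like signals of spike-in controls. They were 2 arrays of WT nerve at 4 months and 2 arrays of WT nerve at P5, which are 4 of the 24 arrays of the series. The other arrays hold WT nerve at P28 and 3 further genotypes at each age. These are Chop null (mice without Ddit3, the gene of the stress-induced transcription factor CHOP), S63del (mice that model an inherited demyelinating neuropathy) and S63del/Chop null. Every sample was total RNA of whole sciatic nerve whose perineurial sheath had been taken off before freezing, labelled with biotin and hybridised to an Affymetrix array. The labels call the arrays biological replicates. They give neither the sex of the mice nor the number of nerves behind an array, so p-values measure the spread between arrays. That spread was pooled for each gene over all 24 arrays of the series, so it is not that of the 4 WT arrays alone. Groups were unequal in spread. Their residual standard deviation ran from 0.123 (Chop null P5) to 0.394 (Chop null P28). In WT nerves it was 0.227 at 4 months and 0.16 at P5. A gene whose WT arrays lie far apart can therefore have an error that is too small for them.

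A peripheral nerve holds axons, the Schwann cells that wrap them, fibroblasts, vessels, resident macrophages and mast cells. In the first days after birth Schwann cells leave the cell cycle and start to build myelin, a membrane rich in cholesterol and galactolipids, while the nerve lengthens with the growing limb. In the adult the myelin is kept up rather than built, and the nerve is wrapped in a mature matrix and a tight blood-nerve barrier. A lower signal in whole tissue can mean fewer cells of a type or less RNA in each cell, and these cannot be told apart here.

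Values are log2 expression, so a difference of 1 is a doubling. Each gene was read from its brightest probe set, changes are log2 differences of 4 months minus P5 with the standard error (SE) of a limma fit to all 24 arrays, and a gene was called at an adjusted p under 0.05. No detection calls were used, so a value near the bottom of the range was not told apart from background. Of 12393 genes tested, 4557 (36.8%) were called, 2634 (21.3%) higher and 1923 (15.5%) lower at 4 months. These shares are the background for the counts of every gene list below that use all arrays. The median change of all genes was 0.03. Changes of over 2-fold were called in 971 genes that rose (7.84%) and 583 that fell (4.7%), and changes of over 4-fold in 272 and 156 genes.

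The labelled tissue carried its markers. S100b, a calcium-binding protein of Schwann cells, stood at 11.91 and 11.98 at 4 months, against 11.10 and 10.91 at P5, and Pmp22 and Mbp, which encode compact myelin proteins, lay at the top of every array's range. The array medians of the series ran from 6.84 to 7.03. WT 4 months replicate 1 differed from its partner in RNA integrity: its signal from the 3′ probe set of the control gene Gapdh exceeded that from the 5′ probe set by 2.12, against 0.08 in replicate 2 and -0.22 and -0.17 in the P5 arrays. In Chop null nerves, which share no array with the WT nerves, the same measure was 0.03 and -0.04 at 4 months and -0.18 and -0.2 at P5. The 3′ excess of a second control gene, Actb, was 1.82 and 0.84 in WT nerves at 4 months, against 0.44 and 0.33 at P5. In Chop null nerves it was 0.82 and 0.74 at 4 months, against 0.38 and 0.36 at P5. By Actb every 4-month array of both genotypes lay above their P5 arrays. Neither leaving out replicate 1 nor turning to Chop null nerves removes that difference, and its part in the age changes was not tested. Where counts of gene lists moved by over 1.5 times without WT 4 months replicate 1, this is stated below. Without that array fewer genes were called over all genes as well, so counts without it have a lower background than the shares above. The age change in Chop null nerves is given beside some WT values. Of 12 spike-in probe sets, the difference between 4 months and P5 ran from -0.48 to 0.04, and like spike-ins were part of the choice of ages.

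The largest rises were led by Cyp2e1. Cyp2e1, a cytochrome P450 that oxidises ethanol and ketones, measured 12.98 and 12.67 at 4 months, against 4.22 and 4.19 at P5. That was the largest change on the arrays, 393-fold (8.62 ± 0.14, adjusted p = 4.4e-17), and 7.99 in Chop null nerves. Inmt, an N-methyltransferase of small amines, measured 11.61 and 11.78 at 4 months, against 4.78 and 5.26 at P5 (102-fold). Aldh1a1, which makes retinoic acid from retinaldehyde, measured 11.84 and 11.89 at 4 months, against 6.17 and 5.85 at P5 (57.9-fold). No overlap between the ages was a condition for naming these genes, and it held in 67.4% of all genes tested. The other rises that completed the 14 largest were Amy1 (an amylase, 6.03 ± 0.26), Tmem45b (5.67 ± 0.33), Ces1d (a carboxylesterase, 5.49 ± 0.41), Cpxm2 (5.19 ± 0.17), Gpm6a (a membrane glycoprotein known from neurons, 5.11 ± 0.19), Thrsp (a promoter of fatty acid synthesis, 4.87 ± 0.58), Cyp2f2 (4.54 ± 0.28), Pon1 (paraoxonase, 4.45 ± 0.38, or 3.84 without WT 4 months replicate 1), Cidec (a lipid droplet protein, 4.41 ± 0.30) and Serpina3n (a protease inhibitor, 4.36 ± 0.26). Serpina1b (5.14 ± 0.17) belongs to a family of near-identical antitrypsin genes, so its signal may come from several of them. Cidec is also a member of the adipocyte list below, and the part of fat on the nerve in these rises was not tested.

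The largest falls were led by Nrk, Agtr2 and Dlk1. Nrk, a kinase known from fetal tissue, measured 4.74 and 4.42 at 4 months, against 10.95 and 11.18 at P5, an 89.7-fold fall (-6.49 ± 0.16, adjusted p = 2.8e-14). Agtr2, the angiotensin receptor that is abundant before birth, measured 4.42 and 4.03 at 4 months, against 10.23 and 10.21 at P5 (63.9-fold). Dlk1, an imprinted Notch-like protein of progenitor cells, measured 6.27 and 6.14 at 4 months, against 11.54 and 11.62 at P5 (41.5-fold). No overlap between the ages was a condition for naming these falls as well. Next came Fbn2 (fibrillin-2, which builds microfibrils in developing tissue, -5.33 ± 0.20), the proliferation genes Pclaf (-4.71 ± 0.23), Birc5 (-4.57 ± 0.23), Mki67 (-4.32 ± 0.29), Cdk1 (-4.20 ± 0.23), Top2a (-4.15 ± 0.29) and Pbk (-4.13 ± 0.24), Kera (the proteoglycan keratocan, -4.02 ± 0.21) and Gjc3 (connexin 29, a channel protein of Schwann cells, -3.94 ± 0.31). A second, dim probe set of Top2a did not move (0.15).

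Among those falls, Myh8, the perinatal myosin heavy chain of skeletal muscle, and Atp1b4, known from perinatal muscle, stood apart by the spread at P5. Myh8 measured 4.29 and 3.58 at 4 months, against 7.76 and 9.78 at P5. Atp1b4 measured 3.22 and 3.09 at 4 months, against 5.89 and 8.53 at P5. Both were higher in P5 replicate 2, which of these 4 arrays had the highest mean of muscle genes. The mean of 27 skeletal muscle genes was 6.30 and 6.70 at 4 months, against 7.56 and 9.12 at P5. Of these genes, 0 rose and 7 fell, with a median change of -2.15 in WT nerves and 0.54 in Chop null nerves. Without WT 4 months replicate 1, 1 of the 27 was called. Myh8 fell by 4.85 in Chop null nerves too, and the part of muscle left on the dissected nerve in the other falls was not tested.

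**Figure D1:**
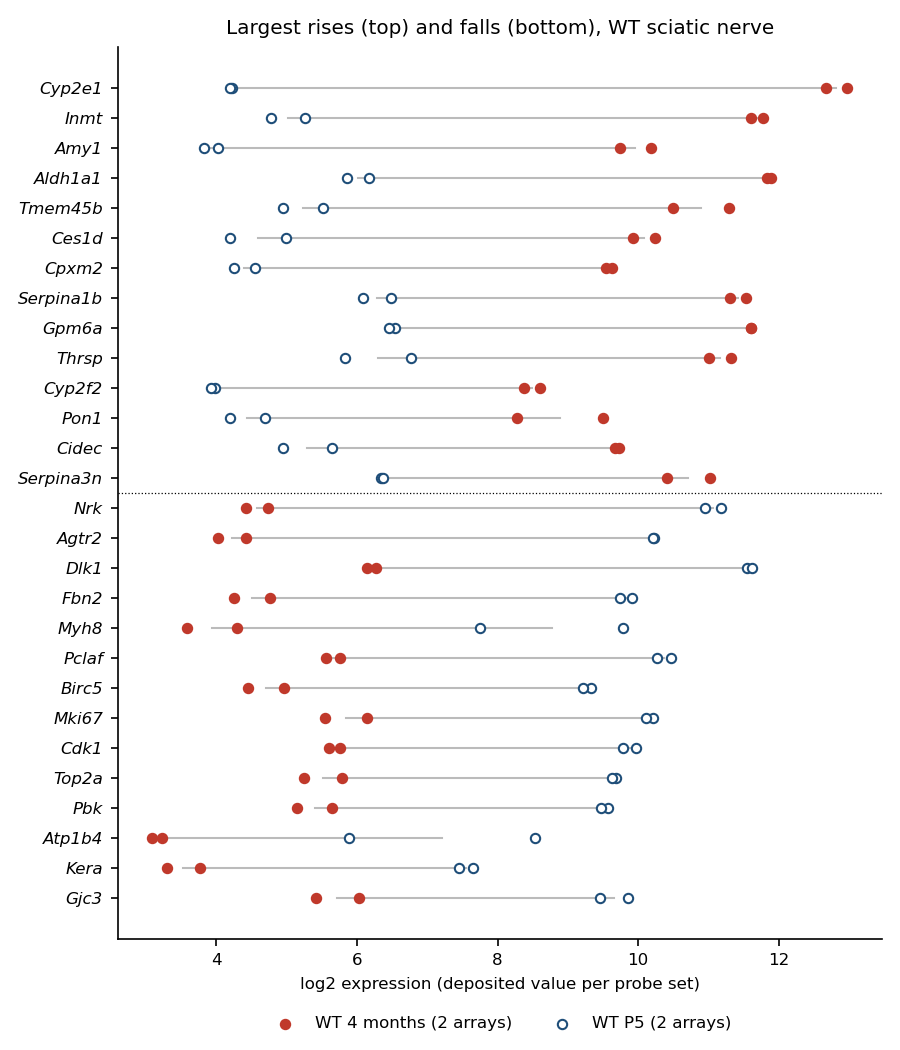
Log2 expression of the 14 largest rises (above the dotted line) and 14 largest falls (below it) on each WT array, filled points for 4 months and open points for P5, with a grey line between the means. Points of 1 age lie close together for most genes, and apart at P5 for Myh8 (7.76 and 9.78) and Atp1b4 (5.89 and 8.53).

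Genes of DNA replication and mitosis were lower at 4 months. All 50 measured genes of the cell cycle and DNA replication list fell and 0 rose, against 15.5% of all genes that fell, with a median change of -2.63 beside 0.03 over all genes. The list's mean was 5.94 and 5.74 at 4 months, against 8.20 and 8.11 at P5. Without WT 4 months replicate 1, 48 of 50 were called lower, and the median in Chop null nerves was -2.69. Cdk1, the kinase that drives mitosis, measured 5.60 and 5.76 at 4 months, against 9.98 and 9.78 at P5 (18.3-fold, adjusted p = 3.1e-10). Mki67, which coats mitotic chromosomes, measured 6.14 and 5.54 at 4 months, against 10.21 and 10.11 at P5 (20-fold). Rrm2, the subunit of ribonucleotide reductase that supplies DNA precursors, changed by -3.90 ± 0.21 and the spindle protein Prc1 by -3.21 ± 0.18.

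Promoters of these genes are shown because genes of the cell cycle list moved together. A textbook pair of elements, the CCAAT box and the cell cycle gene homology element TTTGAA, was searched on both strands of RefSeq windows running from 250 bases before to 50 after the gene start. Windows were found for 41 of 50 genes. CCAAT was in 29 of them (70.7%), against 37.9% of all 27025 windows, TTTGAA in 20 (48.8%), against 18.1%, and both in 18 (43.9%), against 7.12%. Here and below, all windows include those of genes that were not tested, and the motif share of a fixed gene list does not depend on these arrays. A match describes letters and does not show a bound factor. The 2 most strongly changed genes by p whose windows hold both motifs were Cdk1 (chr10:69352863-69353162, minus strand) and Prc1 (chr7:80294201-80294500, plus strand), build GRCm38.p6. Capitals mark matches to these motifs on either strand.
Cdk1: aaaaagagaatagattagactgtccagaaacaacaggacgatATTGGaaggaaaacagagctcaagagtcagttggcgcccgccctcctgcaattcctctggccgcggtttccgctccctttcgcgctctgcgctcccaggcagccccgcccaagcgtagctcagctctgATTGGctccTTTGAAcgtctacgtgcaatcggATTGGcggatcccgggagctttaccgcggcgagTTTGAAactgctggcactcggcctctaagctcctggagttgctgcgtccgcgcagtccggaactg
Prc1: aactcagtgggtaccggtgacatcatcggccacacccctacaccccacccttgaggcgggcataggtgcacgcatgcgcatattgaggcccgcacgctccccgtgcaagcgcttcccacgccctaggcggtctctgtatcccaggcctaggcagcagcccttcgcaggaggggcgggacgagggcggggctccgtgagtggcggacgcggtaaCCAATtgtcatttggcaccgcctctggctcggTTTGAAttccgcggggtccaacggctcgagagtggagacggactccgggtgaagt
In Cdk1 the last CCAAT match starts at -48 and the last TTTGAA at -15 from the gene start, and in Prc1 they start at -37 and -5.

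Chromatin and RNA-processing genes moved the same way on a smaller scale. Of 22 histone variants and chromatin genes 11 fell and 1 rose (Cbx5), with a median of -0.35. Hmgb2, a chromatin protein of dividing cells, measured 7.95 and 7.89 at 4 months, against 10.57 and 10.54 at P5 (-2.64 ± 0.25, adjusted p = 2.7e-07), and the DNA-damage histone H2ax changed by -2.25 ± 0.11. Among splicing factors 8 of 20 fell and 0 rose (median -0.43), with the smallest p for Ptbp1 (-0.91 ± 0.12), a repressor of neuronal exons, whose dim second probe set changed by 0.07. Proteasome subunits fell in 12 of 25 (median -0.33, Psma4 -1.05 ± 0.14), and cytosolic ribosomal proteins in 13 of 42 (median -0.16, Rpsa -0.50 ± 0.09), with 0 rises in either. The ribosomal count was 7 without WT 4 months replicate 1. The respiratory chain list held 7 rises and 15 falls among 79 genes (median -0.08), a share called below that of all genes. It held 2 rises and 11 falls (median -0.17) without WT 4 months replicate 1.

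Fetal growth genes were lower as a group. In the fetal and growth-linked list 18 of 25 fell and 2 rose, with a median of -0.99. Mdk, the growth factor midkine, measured 7.19 and 7.29 at 4 months, against 10.30 and 10.11 at P5 (-2.97 ± 0.17, adjusted p = 5.4e-10). Hmga2, a chromatin protein of fetal growth, changed by -2.60 ± 0.15, and Igf2bp3, a fetal RNA-binding protein, by -2.80 ± 0.27. The 2 rises were Stmn1 (0.72) and Dpysl3 (0.41), which were picked out after their values were seen, and 1 rise was left without WT 4 months replicate 1.

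Imprinted genes, which are expressed from 1 parental copy and many of which steer fetal growth, fell in 12 of 19 and rose in 3, with a median of -1.48. Igf2, the fetal insulin-like growth factor, measured 9.19 and 9.62 at 4 months, against 13.04 and 13.06 at P5, a 12.5-fold fall (adjusted p = 3.9e-08). Plagl1, a transcription factor, changed by -2.28 ± 0.11, and the noncoding RNA Meg3 by -1.78 ± 0.14. Igf2r, which clears IGF2, changed by -2.28 ± 0.19 in its brightest probe set and by -0.04 in the other. The rises were Nnat (2.79), Impact (0.88) and Sgce (0.69), picked out after their values were seen. Igfbp6, which prefers IGF2 among the IGFs, measured 13.06 and 13.18 at 4 months, against 11.37 and 11.34 at P5. Over the 24 WNT, BMP and IGF regulators 13 rose and 6 fell (median 0.52, and 0.29 without WT 4 months replicate 1). Lgr5, a receptor that strengthens WNT signals, changed by -2.56 ± 0.19, and the WNT antagonist Frzb by 2.93 ± 0.23.

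Genes of myelin split. The structural proteins Pmp22 and Mbp lay at the upper limit of the arrays, whose highest values were 14.10 and 14.20 at 4 months and 14.19 and 14.19 at P5, so a change at that level could not be read. Pmp22 measured 14.10 and 14.20 at 4 months, against 14.19 and 14.19 at P5. Among 21 genes of myelin proteins and galactolipid enzymes 3 rose and 8 fell (median -0.14), and 3 and 5 were called without WT 4 months replicate 1. Mag, the adhesion protein of the membrane that faces the axon, measured 8.64 and 9.76 at 4 months, against 11.26 and 11.23 at P5, a 4.12-fold fall (-2.04 ± 0.23, adjusted p = 1.8e-06). The lower Mag value was that of replicate 1, and without it the change was -1.48. Gal3st1, which makes sulfatide, measured 8.85 and 9.36 at 4 months, against 11.14 and 10.95 at P5 (-1.94 ± 0.17), and the lipid phosphatase Mtmr2 changed by -1.35 ± 0.19. The rises were Cadm3, an adhesion molecule of the axon surface (10.39 and 10.59 at 4 months, against 8.72 and 8.78 at P5), Ndrg1 (13.27 and 13.40 at 4 months, against 12.30 and 12.22 at P5) and Aspa (0.80), the last named after its values were seen. Mutations of Ndrg1 cause a demyelinating neuropathy in people.

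Cholesterol synthesis was lower nearly throughout. Of 20 genes of the pathway 17 fell and 0 rose, with a median of -1.15, and 15 fell without WT 4 months replicate 1. The list's mean was 9.34 and 9.41 at 4 months, against 10.47 and 10.50 at P5, and the median in Chop null nerves was -1.14. Tm7sf2, a sterol reductase, measured 7.79 and 8.01 at 4 months, against 10.27 and 10.15 at P5 (4.98-fold, adjusted p = 8.1e-08). Mvk, which phosphorylates mevalonate, changed by -1.66 ± 0.14. Of the later sterol enzymes, Nsdhl changed by -1.60 ± 0.17 and Dhcr7 by -1.28 ± 0.13. Hmgcs1, which makes HMG-CoA, measured 13.11 and 13.14 at 4 months, against 13.62 and 13.63 at P5 (-0.50 ± 0.12). The 3 not called were Srebf2 (-0.13 ± 0.18), the transcription factor of the pathway, Pmvk (-0.28 ± 0.18) and Lbr (0.10 ± 0.18).

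Promoters of this pathway are known for sterol response elements beside CCAAT boxes. Windows were found for 16 of 20 genes. CCAAT was in 15 (93.8%), against 37.9% of all windows, whereas the sterol element, searched as TCACNCC, was in 3 (18.8%), close to the 15.6% of all windows. Both were in 3 (18.8%), against 5.77%, and these were the same windows that held TCACNCC. The windows of Msmo1, a sterol oxidase, and Hmgcs1 are shown, with matches to both motifs on either strand in capitals. They lie at chr8:64733529-64733828 (minus strand) and chr13:119690101-119690400 (plus strand), build GRCm38.p6.
Msmo1: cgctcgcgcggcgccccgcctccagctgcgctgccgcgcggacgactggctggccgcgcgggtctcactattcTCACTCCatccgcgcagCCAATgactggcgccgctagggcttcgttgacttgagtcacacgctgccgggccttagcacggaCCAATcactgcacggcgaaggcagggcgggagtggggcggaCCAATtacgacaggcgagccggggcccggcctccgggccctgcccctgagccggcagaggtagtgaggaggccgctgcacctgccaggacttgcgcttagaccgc
Hmgcs1: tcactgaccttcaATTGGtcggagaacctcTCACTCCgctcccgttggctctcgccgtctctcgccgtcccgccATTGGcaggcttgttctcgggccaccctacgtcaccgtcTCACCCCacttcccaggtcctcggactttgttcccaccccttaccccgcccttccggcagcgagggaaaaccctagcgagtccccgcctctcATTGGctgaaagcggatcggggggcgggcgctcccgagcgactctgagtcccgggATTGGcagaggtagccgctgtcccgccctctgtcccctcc
Msmo1, whose window holds 1 match to TCACNCC and 3 to CCAAT, measured 11.55 and 11.53 at 4 months, against 12.55 and 12.48 at P5 (-0.98 ± 0.17, adjusted p = 0.00018).

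Fatty acid genes did not follow. Of 24 genes for synthesis, elongation and desaturation 9 rose and 8 fell (median -0.02). Me1, malic enzyme, which supplies NADPH for fatty acid synthesis, measured 10.52 and 10.61 at 4 months, against 7.68 and 7.69 at P5 (7.34-fold, adjusted p = 4.7e-10). Scd1, a desaturase abundant in fat, changed by 1.77 ± 0.20, while the elongase Elovl7 and the desaturase Fads2 changed by -1.11 ± 0.14 and -2.05 ± 0.28. Fads2 changed by -1.44 without WT 4 months replicate 1. Me1, Scd1 and Thrsp are also expressed by adipocytes, whose markers were higher at 4 months. Of 18 adipocyte genes 16 rose and 0 fell, with a median of 2.74, in WT and 2.67 in Chop null nerves, and their mean was 10.48 and 10.11 at 4 months, against 7.57 and 7.94 at P5. Adipoq, the hormone adiponectin, measured 13.28 and 13.00 at 4 months, against 9.24 and 10.12 at P5 (11-fold). Plin4, which coats lipid droplets, changed by 3.93 ± 0.30, the hormone resistin (Retn) by 3.91 ± 0.35 and the retinol carrier Rbp4 by 3.40 ± 0.26. How much of the rises in lipid genes came with fat on the nerve was not tested.

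**Figure D2:**
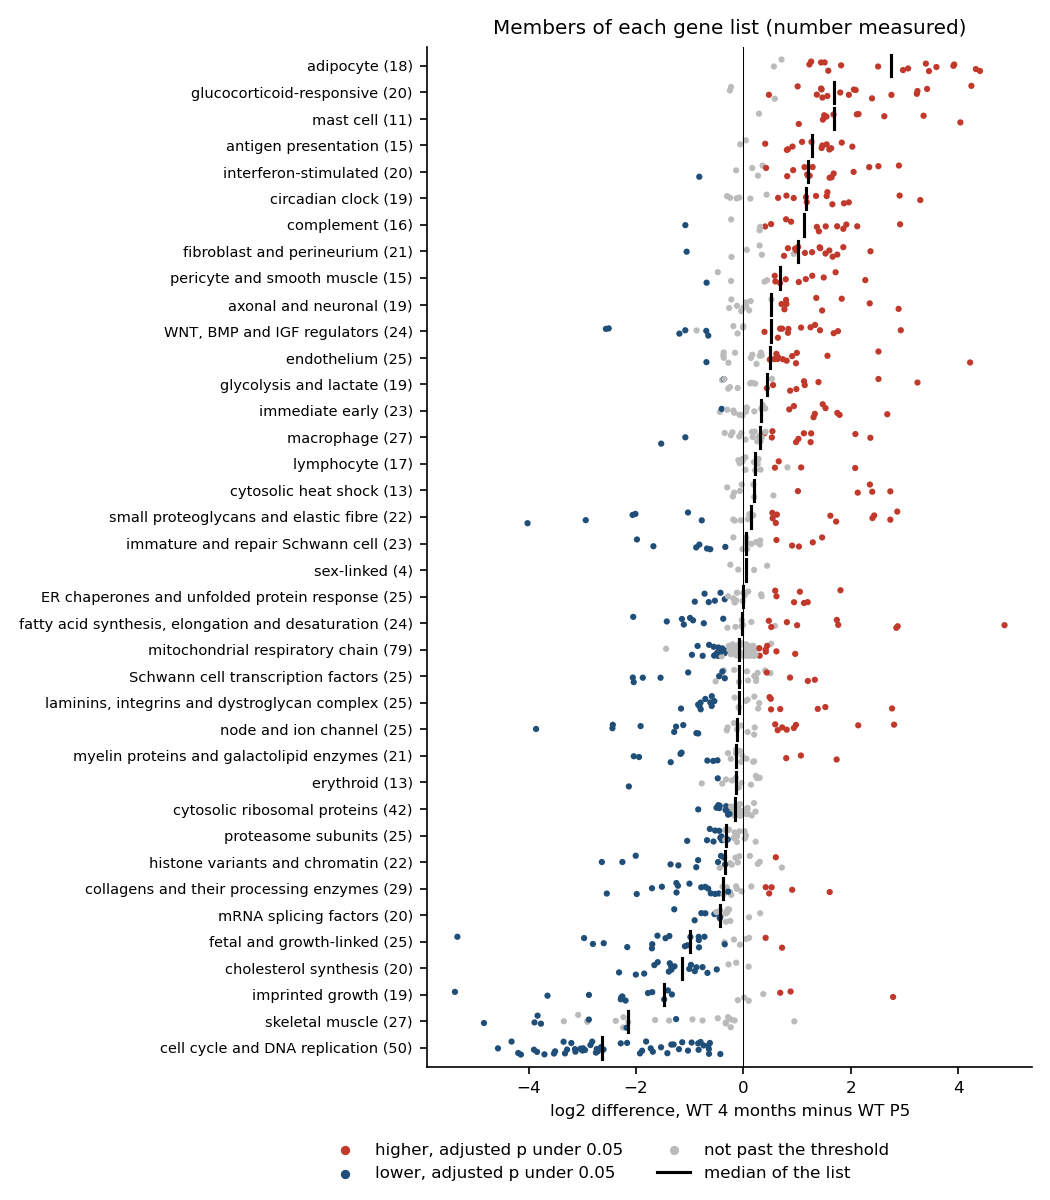
Log2 difference (4 months minus P5, WT) of every measured member of each gene list, with red points for members called higher, blue for lower, grey for those not called and a black bar at the list's median. The adipocyte list has the highest median (2.74), and in the cell cycle list (median -2.63) all 50 members are blue.

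Schwann cell regulators showed no common direction. Among 25 transcription factors 4 rose and 8 fell (median -0.08), and 2 and 4 without WT 4 months replicate 1. Pou3f1 (SCIP or Oct6), the factor of the promyelinating stage, measured 8.95 and 9.07 at 4 months, against 10.82 and 10.95 at P5 (-1.87 ± 0.35, adjusted p = 0.00037). Its relative Pou3f2 changed by -1.54 ± 0.17, Zeb2, needed for Schwann cell differentiation, by -2.06 ± 0.21, and Id2, an inhibitor of differentiation, by -2.04 ± 0.24. Id3, of the same family, was higher (1.33 ± 0.14). Egr2 (Krox20), the main activator of myelin genes, measured 11.11 and 11.27 at 4 months, against 11.56 and 11.55 at P5, and was not called (-0.36 ± 0.17, adjusted p = 0.12). Sox10, the lineage factor, was not called either (0.27 ± 0.17, adjusted p = 0.25). Sox2, a factor of immature cells, changed by -1.03 ± 0.38 (adjusted p = 0.041, and 0.16 without WT 4 months replicate 1).

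In the list of immature and repair Schwann cells 5 genes rose and 7 fell among 23 (median 0.06), and 3 rose and 5 fell (median 0.004) without WT 4 months replicate 1. Tnc, the matrix protein tenascin-C, measured 7.17 and 6.72 at 4 months, against 9.03 and 8.82 at P5 (-1.98 ± 0.23). Gap43, a growth-associated protein, changed by -1.68 ± 0.19 and Erbb3, the neuregulin receptor, by -0.88 ± 0.17. Spry1, a brake on growth factor signals, was higher (1.29 ± 0.14), as was Uchl1, a ubiquitin hydrolase of axons and injured nerve (1.47 ± 0.30). Jun, the regulator of the repair state, was not called (-0.52 ± 0.20, adjusted p = 0.057). The receptors Ngfr (-0.68 ± 0.20) and Ncam1 (-0.34 ± 0.12) were called with all arrays, with adjusted p of 0.057 and 0.097 without WT 4 months replicate 1.

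Channels and node proteins changed in both directions, 8 of 25 higher and 9 lower (median -0.12). Kcnj10 (Kir4.1), a glial potassium channel, measured 6.62 and 6.42 at 4 months, against 10.34 and 10.42 at P5, a 14.5-fold fall (adjusted p = 5.6e-10). Kcna1, a potassium channel of the juxtaparanode whose RNA is also made by Schwann cells, measured 8.77 and 9.13 at 4 months, against 11.32 and 11.44 at P5 (-2.43 ± 0.22), and the adhesion molecule Cntn1 changed by -2.44 ± 0.20. Scn8a, the sodium channel of the mature node, measured 7.67 and 7.05 at 4 months, against 4.33 and 4.77 at P5 (2.81 ± 0.24, adjusted p = 6.6e-08), and its other probe set changed by 0.64. Atp1b2, a subunit of the sodium pump, changed by 2.14 ± 0.13 in its brightest probe set and by -0.03 in the other.

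Axons carry little RNA, and genes of axons and neurons were dim in the nerve. Of 19 such genes 9 rose and 0 fell (median 0.52), and 6 rose without WT 4 months replicate 1 (median 0.14). The median in Chop null nerves was 0.17. Stmn2, a microtubule regulator of axons, measured 8.81 and 8.65 at 4 months, against 6.39 and 6.36 at P5 (2.35 ± 0.21, adjusted p = 1e-07). The synaptic protein gene Snap25 measured 6.96 and 5.64 at 4 months, against 3.41 and 3.40 at P5, a change of 2.89, or 2.23 without WT 4 months replicate 1. Eno2, the neuronal enolase, changed by 1.83 ± 0.18 and Nefm, a neurofilament, by 1.36 ± 0.24. Nefl, another neurofilament, was not called (7.38 and 6.62 at 4 months, against 6.70 and 6.25 at P5).

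The matrix changed in composition. Of 29 collagens and processing enzymes 15 fell and 5 rose (median -0.39), and 14 fell and 3 rose without WT 4 months replicate 1. Col1a1, the chain of fibrillar collagen I, measured 12.21 and 12.36 at 4 months, against 13.53 and 13.54 at P5 (2.38-fold lower, adjusted p = 1.5e-06) in its brightest probe set, while another changed by 0.57. Col5a1, which starts collagen fibrils, changed by -1.70 ± 0.13 and Plod2, which prepares collagen for cross-linking, by -2.54 ± 0.19. Lox, the cross-linking enzyme itself, measured 12.33 and 12.31 at 4 months, against 10.75 and 10.66 at P5 (1.61 ± 0.16).

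Small proteoglycans and elastic fibre genes rose in 10 of 22 and fell in 6 (median 0.15). The falls, named here as a set after their values were seen, were microfibril and elastic fibre genes for the most part: Mfap2 (-2.94), Eln (-2.06), Mfap4 (-2.01), Fbln2 (-0.78), beside Kera (-4.02) and Aspn (-1.03). Mfap2 measured 7.77 and 8.11 at 4 months, against 10.90 and 10.85 at P5. Efemp1 (fibulin-3) measured 11.44 and 11.30 at 4 months, against 8.47 and 8.53 at P5 (2.87 ± 0.16, adjusted p = 6.1e-10). Comp, which links collagens, changed by 2.74 ± 0.18 and osteomodulin (Omd) by 2.41 ± 0.16.

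Among laminins, integrins and their partners 7 of 25 rose and 10 fell (median -0.08). Itgb4, the laminin receptor subunit of myelinating Schwann cells and perineurium, measured 10.33 and 11.16 at 4 months, against 8.05 and 7.89 at P5 (2.77 ± 0.22, adjusted p = 2.5e-08). Lamb2, a laminin chain, changed by 1.53 ± 0.15 and Itgb5 by 1.39 ± 0.15, while the laminin chain Lama4 (-0.82 ± 0.09) and Nid2 (-1.16 ± 0.17) were lower.

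Fibroblast and perineurial genes rose in 15 of 21 and fell in 1, Clec3b, with a median of 1.02. Without WT 4 months replicate 1, 17 rose and 0 fell. Scara5, a ferritin receptor of fibroblasts, measured 11.83 and 11.66 at 4 months, against 9.48 and 9.27 at P5 (2.37 ± 0.11, adjusted p = 8.1e-11), with a second probe set at 0.07. Gelsolin (Gsn) changed by 1.66 ± 0.10 and Cldn1, a tight junction protein of the perineurium, by 1.42 ± 0.17 in its brightest probe set. Pericyte and smooth muscle genes rose in 10 of 15 and fell in 1 (median 0.68), led by Tagln (2.27 ± 0.18), a contractile cell protein.

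Endothelial genes rose in 13 of 25 and fell in 1 (median 0.49), and in 10 and 2 without WT 4 months replicate 1, with the largest values among transporters of the blood-nerve barrier. Abcb1a, the P-glycoprotein that pumps out drugs, measured 10.59 and 10.66 at 4 months, against 6.74 and 6.06 at P5 (18.7-fold, adjusted p = 3e-11). Slc2a1 (GLUT1), the glucose transporter of barrier endothelium and perineurium, measured 12.25 and 12.19 at 4 months, against 9.75 and 9.65 at P5 (2.52 ± 0.15). Among general endothelial markers, Pecam1 changed by 0.34 ± 0.15 and Tie1 by 0.14 ± 0.17, neither called, and Cdh5 by 0.91 ± 0.17 in its brightest probe set but by 0.27 in the mean of its probe sets (adjusted p = 0.19). Vwf changed by 1.57 ± 0.17. Changes in Chop null nerves were 4.14 for Abcb1a and 2.50 for Slc2a1.

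Fuel genes rose in part. In the glycolysis and lactate list 9 of 19 rose and 1 fell (median 0.44). Pdk4, which holds back pyruvate oxidation, measured 9.03 and 9.05 at 4 months, against 5.45 and 6.14 at P5 (9.48-fold), and hexokinase Hk1 changed by 1.40 ± 0.14 in its brightest probe set and by 0.10 in the other.

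Genes of antigen presentation, interferon response and complement were higher. All but 2 of 15 antigen presentation genes rose (13, with 0 falls, median 1.27). H2-K1, a class I heavy chain, measured 12.32 and 12.35 at 4 months, against 10.71 and 10.70 at P5 (3.11-fold, adjusted p = 6.7e-08). H2-Aa, a class II chain, changed by 2.03 ± 0.26, Cd74, its chaperone, by 1.83 ± 0.27 and Tapbp, which loads peptides, by 1.60 ± 0.13 in its brightest probe set and by 0.05 in the other. The class I genes are near-identical copies, so signals of H2-K1 and H2-D1 (1.55 ± 0.13) may be shared. Interferon-stimulated genes rose in 15 of 20 and fell in 1 (median 1.20), with Ifit3 at 7.97 and 8.35 at 4 months, against 5.61 and 6.03 at P5. Complement genes rose in 12 of 16 and fell in 1 (median 1.13), and 10 rose and 0 fell without WT 4 months replicate 1. Clu, an inhibitor of the late complex, measured 10.40 and 10.41 at 4 months, against 7.53 and 7.44 at P5 (7.57-fold), and C2 and factor B (Cfb) changed by 1.92 ± 0.12 and 1.86 ± 0.13.

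Markers of immune cells moved unequally. Macrophage genes rose in 10 of 27 and fell in 2 (median 0.30), and rose in 6 without WT 4 months replicate 1 (median 0.20). Of the defining markers, Cd68 changed by 0.53 ± 0.16, while Csf1r (0.32 ± 0.14) and Adgre1 (-0.04 ± 0.16) were not called. Cd163 and Mgl2, receptors of tissue macrophages, changed by 2.37 ± 0.30 and 2.09 ± 0.16, and Cx3cr1, the fractalkine receptor, by -1.53 ± 0.21. C1qa measured 8.17 and 9.97 at 4 months, against 10.22 and 10.09 at P5, and the low value was that of replicate 1. Mast cell genes rose in 10 of 11 with 0 falls (median 1.68). Mcpt4, a protease of connective tissue mast cells, measured 10.21 and 9.44 at 4 months, against 5.94 and 5.62 at P5 (16.5-fold, adjusted p = 1.4e-09), and Cpa3 measured 11.09 and 10.15 at 4 months, against 7.29 and 7.23 at P5. Lymphocyte genes were dim, and 4 of 17 rose (median 0.22), where 21.3% of all genes rose. Without WT 4 months replicate 1 fewer were called, and the median was 0.105.

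The globin gene Hba-a1, a marker of blood, measured 3.71 and 3.77 at 4 months, against 3.49 and 3.52 at P5, near the bottom of the range. Alas2, another erythroid marker, measured 9.30 and 8.95 at 4 months, against 10.24 and 9.56 at P5, and was not called. Of 13 erythroid genes 2 fell and 0 rose (median -0.14), where 15.5% of all genes fell. Without WT 4 months replicate 1 fewer were called, and the median was -0.19. The falls were Slc4a1, the anion exchanger of red cells (5.88 and 5.67 at 4 months, against 7.83 and 7.99 at P5, adjusted p = 0.00013), and Ermap (-0.48), named after their values were seen. Of 4 sex-linked genes 0 were called, at an adjusted p of 0.43 or more. Xist measured 9.88 and 8.61 at 4 months, against 10.31 and 8.37 at P5, in its brightest probe set, and the others changed by -3.31 and -1.12. The Y-linked Eif2s3y was at 7.67 or above on all 4 arrays.

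Clock output and glucocorticoid-responsive genes were higher. Of 19 circadian clock genes 13 rose and 0 fell (median 1.17), and 12 rose and 1 fell without WT 4 months replicate 1. Hlf, an output factor of the clock, measured 8.56 and 8.95 at 4 months, against 5.54 and 5.38 at P5 (9.83-fold, adjusted p = 2.4e-10), and the clock repressor Per2 measured 7.45 and 8.14 at 4 months, against 5.04 and 4.72 at P5 (7.53-fold) in its brightest probe set. The other probe set of Per2 changed by 0.64. The time of day of dissection is not in the labels, and its part was not tested. Tef, of the same family as Hlf, changed by 1.35 ± 0.16 in its brightest probe set and by -0.04 in the mean of its probe sets. Glucocorticoid-responsive genes rose in 17 of 20 with 0 falls (median 1.69). Sult1a1, a sulfotransferase, measured 11.86 and 11.85 at 4 months, against 8.63 and 8.61 at P5 (9.40-fold), and Cebpd, a transcription factor, changed by 2.09 ± 0.16 in its brightest probe set and by 0.18 in the other. Zbtb16 changed by 4.25 ± 0.27 in 1 probe set and by -0.17 in the other.

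Immediate early genes, which respond within minutes to handling of tissue, rose in 9 of 23 and fell in 1 (median 0.33), with Ccn2 at 2.68 ± 0.24 and Zfp36 at 1.79 ± 0.12. In the list of endoplasmic reticulum chaperones and genes of the response to unfolded proteins 7 of 25 rose and 6 fell (median -0.01). Without WT 4 months replicate 1 fewer were called, and the median was -0.085. The chaperone Hspa5 (BiP) was not called (12.70 and 12.24 at 4 months, against 12.54 and 12.43 at P5), Asns, the asparagine synthetase, changed by 1.81 ± 0.15, and Ddit3 measured 9.09 and 8.29 at 4 months, against 7.66 and 7.62 at P5 (1.05 ± 0.19). Without WT 4 months replicate 1 the change of Ddit3 was 0.66. Of 13 cytosolic heat shock genes 5 rose and 0 fell (median 0.20), and 5 rose and 1 fell without WT 4 months replicate 1. Hspb1, a small heat shock protein whose mutations cause axonal neuropathy in people, measured 12.06 and 11.81 at 4 months, against 9.12 and 9.28 at P5 (2.74 ± 0.16, adjusted p = 7.8e-10), and Hspa1a measured 8.60 and 8.10 at 4 months, against 5.96 and 5.93 at P5.

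WT nerves at P28 lay between the other ages for most genes with large changes. The P28 arrays share the WT arrays with both comparisons they enter, and they differ in scale: their interquartile ranges were 3.07 and 3.22, against 3.64 to 3.78 on the other WT arrays, and their spike-ins lay up to 5.12 below those at P5. P28 is therefore set beside the other ages as a description. Of the 428 genes called with over 4-fold changes, the P28 mean lay between the other ages in 363 (84.8%), against 53.7% of all called genes and 25.7% of all genes. A wider gap between the other ages leaves more room for a P28 mean inside it. These shares therefore follow in part from the choice of genes by the size of the change, and nothing is concluded from their order. The median share of the change already present at P28 was 79.8% for the falls and 65.6% for the rises. Mki67 averaged 10.16 at P5, 6.19 at P28 and 5.84 at 4 months, whereas Tm7sf2 averaged 10.21, 10.05 and 7.90 and Col1a1 13.54, 13.54 and 12.29 in that order. Pou3f1 was lowest at P28 (10.88, 7.95 and 9.01), and Per2 stayed low until later (4.88, 5.65 and 7.79). Over all 12393 genes, 7378 (59.5%) were called for P28 against P5, 31.3% of all higher, and 7062 (57%) for 4 months against P28, 31.5% of all higher.

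**Figure D3:**
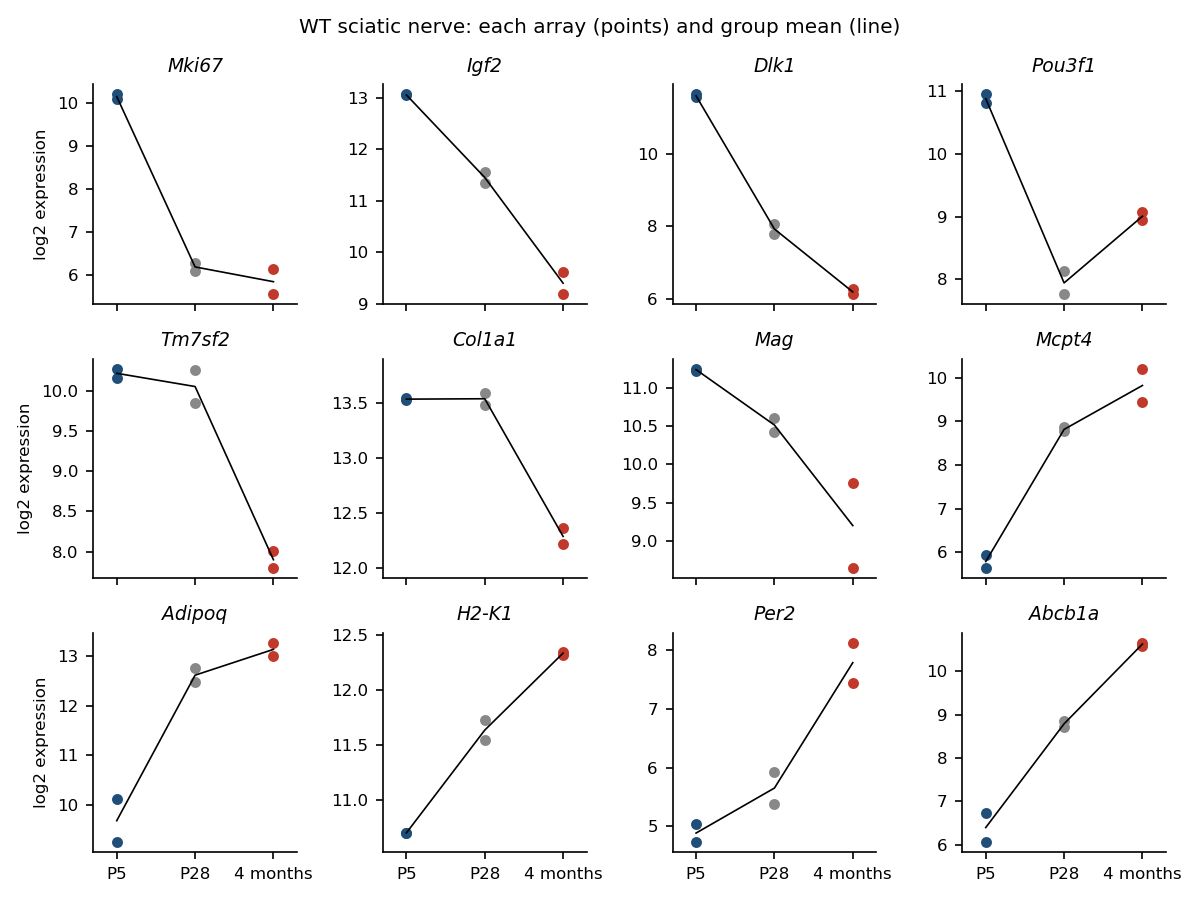
Log2 expression of 12 genes on the WT arrays at P5, P28 and 4 months, with points for arrays and a line through the means. Mki67 and Dlk1 were already low at P28, Tm7sf2 and Col1a1 fell between P28 and 4 months, and Pou3f1 was lowest at P28.

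The age change was also measured in Chop null nerves, which share no arrays with WT nerves. In them 4077 genes were called (32.9%), and 3558 of these had been called in the same direction in WT, which is 78.1% of the WT calls and 87.3% of the Chop null calls, with 0 called in opposite directions. All 28 genes with the largest changes in WT were called the same way. Of the genes called with over 4-fold changes in WT, 271 of 272 rises and 144 of 156 falls were called the same way in Chop null nerves. The difference between the age changes of WT and Chop null nerves was called by limma in 0 genes, with 307 at an unadjusted p under 0.05. With 2 arrays per group this does not show that the changes were equal. Ddit3, the gene that Chop null mice lack, changed by 1.05 in WT and by 0.05 in Chop null nerves and was not called for the difference. Leaving out WT 4 months replicate 2, so that replicate 1 alone stood for that age, gave 88 calls, and leaving out 1 of the other arrays gave at most 4.

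**Figure D4:**
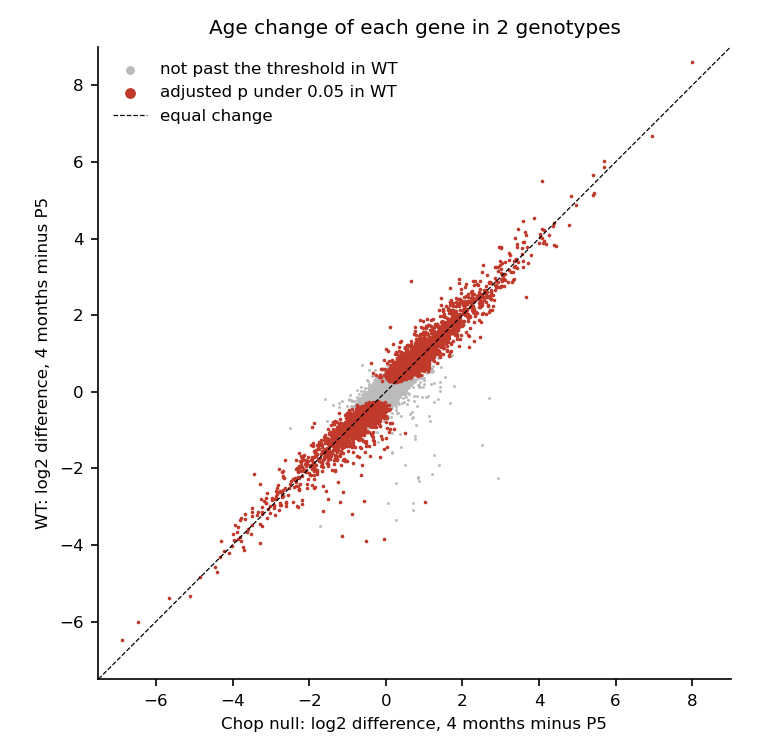
Log2 difference between 4 months and P5 of each of 12393 genes in WT nerves (vertical axis) and Chop null nerves (horizontal axis), red where called in WT, with a dashed line where both are equal. Most red points follow the line, and a group of muscle genes lies below it, among them Acta1, picked out after its values were seen (-3.83 in WT and -0.05 in Chop null nerves).

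The age contrast itself called 39.8% of genes in S63del and 39.2% in S63del/Chop null nerves. Against S63del nerves the age change differed in 35 genes (0.282%), with the signed WT value above that of the mutant in 17 and below it in 18. Against S63del/Chop null nerves the age change differed in 54 (0.436%), above in 25 and below in 29. A fall that was smaller in WT counts as above, and a larger fall as below. Both differences use the same WT arrays, and 28 genes were called in both. Heat shock genes led. Hspa1a changed with age by 2.4 in WT nerves and by -2.39 in S63del nerves, a difference of 4.80 ± 0.43 (adjusted p = 9.5e-06), and by -2.58 in S63del/Chop null nerves. Hspb1 changed by 2.74 in WT nerves and by -0.79 and -0.84 in the mutants, and Fbxo2, which marks glycoproteins for degradation, by 1.66 in WT nerves and by -1.79 and -1.64. The largest differences the other way were in Chst2, a sulfotransferase (0.72 in WT nerves, 3.05 in S63del nerves), Chdh, which oxidises choline (1.75 and 3.61), and Nsg2 (1.27 and 3.10). Against S63del/Chop null nerves Slc6a15, an amino acid transporter, joined them (2.08 in WT nerves, 3.99 in the mutant). The cholesterol list had a median of -1.15 in WT, -0.45 in S63del and -0.19 in S63del/Chop null nerves, and the difference itself was called for Tm7sf2 and Dhcr7 against both, and for Mvd, Mvk, Nsdhl and Hmgcs1 against S63del/Chop null.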

How the data were processed

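Deposited values were used as given: per the file headers each column is 1 array, and from their range the deposited values are log2 expression per probe set, with normalization and software not given in the sources used here. Of 22690 probe sets 64 are controls, 20380 list 1 gene, 691 several and 1555 none; only those with 1 gene were used. Gene IDs of 20351 matched the RefSeq gene table of GRCm38.p6. For 4956 genes with several probe sets the brightest on average across arrays was used, leaving 12393 genes. A group-means model of all 24 arrays (12 groups of 2, 12 residual degrees of freedom) was fitted with limma 3.58.1 in R 4.3.3 (lmFit, contrasts, eBayes; two-sided; Benjamini-Hochberg over all genes; threshold 0.05). Precision is limited by having 2 arrays per group, and depth does not apply.

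Named genes were the 14 largest rises and 14 largest falls among called genes with no overlap between ages, per list up to 5 of its genes ranked by p, a fixed set of nerve genes, and the 3 largest each way in each difference of age changes. The members, the 38 lists and the tests were chosen with earlier results of these data known. Lists are described by counts and medians without a test. Alternatives were quantile normalization, the mean of a gene's probe sets, dim genes left out (under the 40th percentile), the 16 arrays at P5 and 4 months, the 6 WT arrays, weighting of arrays, limma's trend and robust options, a replicate block and each array left out. The fit was tested on simulated data, and the outcome is not given here. No batch is given by the labels. Replicate numbers were not shown to pair the arrays: deviations of same-numbered arrays correlated across genes with r = 0.074. Some items are not reported here.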

Additional observations from a re-analysis of the deposited data

Results flagged for a closer look

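The age change differed between WT and S63del nerves in 35 genes and between WT and S63del/Chop null nerves in 54 genes, by limma's test of the difference itself (4 months minus P5 in WT, less the same in the mutant, adjusted p under 0.05). Those were picked out because the groups' effects under the same contrast differ. WT led by the most in Hspa1a, by 4.80 ± 0.43 against S63del and by 4.98 ± 0.43 against S63del/Chop null nerves, and trailed by the most in Chst2, by -2.33 ± 0.24 and -1.94 ± 0.24. The counts moved with single arrays: they were 15 and 21 without WT 4 months replicate 1, 60 and 128 without WT 4 months replicate 2, 13 and 24 without WT P5 replicate 1, and 20 and 25 without WT P5 replicate 2. Without 1 mutant array the S63del count went as low as 16 (S63del 4 months replicate 2) and the S63del/Chop null count as low as 20 (S63del/Chop null 4 months replicate 1). Before adjustment 608 and 691 genes had p below 0.05. The S63del nerves at 4 months also had raised 3′ over 5′ signals of Gapdh, 1.32 and 1.05, against 2.12 and 0.08 in WT nerves of that age; the part of RNA integrity in these differences was not tested. Groups of 2 arrays are too small for a search for outlying samples.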

How the results depend on the processing

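For 4 months against P5 in WT, the count of called genes (4557) lay between 3551 and 4236 when 1 of the 4 arrays was left out. With the 16 arrays at P5 and 4 months it was 5665, with the 6 WT arrays 3926, with the mean of a gene's probe sets 4490, and with dim genes left out, so that fewer genes were tested, 3754. With the replicate number as a block it was 4479, of which 4452 were shared. Counted only where every probe set moved the called way, an alternative added after the data were seen, it was 3850. Of 2082 called genes with several probe sets, 707 had a probe set that did not move the called way, and 190 of those were still called with the mean. Of all named genes, the direction of a called gene reversed only for Tef with the mean of its probe sets (-0.045, adjusted p = 0.87). Leaving dim genes out gave 4776 calls instead of 7378 for P28 against P5 and 4585 instead of 7062 for 4 months against P28, over fewer genes tested. The difference from S63del gave 55 calls with the 16 arrays and 77 with array weights instead of 35, and the cause was not tested. Leaving out single arrays gave 0 to 88 calls for the difference from Chop null, 13 to 60 for that from S63del and 20 to 128 for that from S63del/Chop null. Arrays have no detection calls here, so values near the bottom and at the top of the range limit the size of a change.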

Other observations

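Several genes had probe sets whose age changes disagreed. Scd2, the desaturase abundant in Schwann cells, was at 13.25 and 13.25 at 4 months, against 13.23 and 13.35 at P5, in its brightest probe set, while another was at 4.55 and 7.89 at 4 months, against 11.12 and 11.42 at P5 (-5.05). Of 8 probe sets of Mbp, 5 sat near the top of the range, and the others changed by -3.99, -2.52 and 0.60. The probe set of Mbp that changed by -2.52 was at 9.34 and 13.50 at 4 months, against 13.93 and 13.95 at P5, so 1 array set that value. Lama4 had a probe set at 4.27 and 6.99 at 4 months, against 9.21 and 9.33 at P5 (-3.64), and Sox10 one that changed by -1.36. In Fzd2, a WNT receptor, the brightest probe set changed by 1.43 and the others by -0.60 and -0.35. In each of these the lower 4-month value of the falling probe set was that of replicate 1, the array with the 3′ excess of Gapdh. Replicate 2 of the Scd2, Lama4 and Sox10 probe sets also lay below both P5 arrays, as did replicate 2 of the Mbp probe sets that changed by -3.99 and -2.52. The Mbp probe set that changed by -3.99 was at 5.78 and 6.55 at 4 months, against 10.08 and 10.23 at P5. The part of RNA integrity in these values was not tested.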
